A study of Medicago truncatula with 48 samples.

Results

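The 100 transcripts described here changed within set limits over seed development under standard temperature and had the lowest heat minus standard differences among transcripts of that kind in Medicago truncatula A17, a model legume. They were chosen from 44316 nuclear identifiers by level, by flatness and by the size of their difference between temperatures. The deposited table held 44473 transcripts in 48 libraries. A level, called y, was the estimated count of a transcript per 1000000 of its library's total after the 100 largest counts of that library were left out. The quantity L was log2 of the mean y of a group plus 1, and D was L under heat stress minus L under standard temperature for 1 tissue and stage. A transcript passed the limits when its mean y lay between 5 and 2000 in all 10 groups under standard temperature, when its L differed by less than 1.5 between the highest and the lowest of these groups, and when the highest L was less than 1 above the second. These limits were met by 2214 transcripts, of which 688 had a median D below 0 both in embryo and in endosperm. The 100 members were those among the 688 with the lowest median of their 10 D. All levels and differences that entered this choice are therefore given as a description, without a test.

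Plants of the A17 genotype were all grown at standard temperature until flowering, after which part of them was moved to heat stress (26 °C by day) and the rest stayed at standard temperature (20 °C by day). The night temperatures given in the sample labels, 14 °C for heat and 19 °C for standard temperature, differ from those in the methods of the study, so that only the day temperatures are used here. Seeds under heat were taken at 14, 17, 22 and 28 days after pollination (DAP) for stages S1, S2, S3 and S4, and seeds under standard temperature at 17, 26, 36 and 44 DAP for the same stages. S1 precedes desiccation tolerance, S2 falls in seed filling after its acquisition, S3 marks the onset of longevity and S4 is the mature seed. Embryo had 3 replicates in each group, endosperm had 2 in each group, and seed coat had 2 in each group at S1 and S2 alone, which gave 20 groups. The labels do not tie replicates to separate plants, so that p-values measure the spread between these samples, which may be technical.

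The embryo and the endosperm of a legume seed arise from fertilization, whereas the seed coat is tissue of the mother plant. During maturation the embryo stores protein and oil, then gains desiccation tolerance and longevity, and a large part of its transcripts changes strongly over these steps. Transcripts with a near-constant level belong in general to functions that every cell uses, and such transcripts are often chosen as references. None of the identifiers could be paired with a gene name in the gene table at hand, so no function is given to any member and neither pathway lists nor tissue markers could be examined. Members are therefore described by their chromosome, length and values.

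Library totals lay between 17690405 and 20084649 estimated counts in embryo (n = 24), 17864494 and 18649177 in endosperm (n = 16), and 21549778 and 53776178 in seed coat (n = 8). The 100 largest counts of a library took 41.5% to 75.5% of its total in embryo under heat, against 43.0% to 79.5% under standard temperature. In endosperm they took 24.3% to 39.9% under heat, against 18.7% to 38% under standard temperature, and in seed coat 28.8% to 30.1% under heat, against 18.2% to 28.5% under standard temperature. Within stages, every heat library had a larger share than every standard library in 6 of 10 pairs: embryo S1, endosperm S1, S2 and S3, and seed coat S1 and S2. At embryo S1 the shares were 65.5% to 66.8% under heat, against 43.0% to 43.2% under standard temperature, and at seed coat S1 28.8% to 30.1% under heat, against 18.2% to 20.3%. Embryo S2 was the 1 pair with smaller shares under heat, 74.9% to 75.5%, against 77.8% to 79.5% under standard temperature. The part of these shares in the differences was not tested beyond the other scalings described here. Each of the 48 libraries lay nearest to a library of its own tissue, and 47 lay nearest to a replicate of their own group. The exception was replicate 2 of embryo S3 under standard temperature, which lay nearest to replicate 2 of embryo S3 under heat. When it was left out, 92 of the 100 members were chosen again.

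The members were lower under heat by a modest amount. The median over members of their median D was -0.22, which corresponds to a level 14.3% lower, against 0.00 over the 2214 transcripts that passed the limits. The middle 50% of members had a median D between -0.26 and -0.19, and the lowest member reached -0.69, a level 38.1% lower. A median D of -0.3 or lower was found in 11 members, and -0.5 or lower in 2. The last members inside the limit of 100 had median D of -0.169235, -0.169128 and -0.168818, and the first transcripts outside it had -0.168212, -0.167916 and -0.166351, so that the limit cut through a continuous range. The median D was larger in size than the spread of replicates on the log2 scale in 90 members, and larger than 2 such SDs in 30. This SD describes single libraries, whereas the median D is taken over differences of group means. The rule chose members for a low median D, and the share over all that passed is not given. Nothing is read from these counts.

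The members' level in a library was summarised by the median of log2(y + 1) over all 100. In embryo this level averaged 4.98 ± 0.06 under heat at S1, against 5.14 ± 0.03 under standard temperature (SD, n = 3 each). At S2 it averaged 5.10 ± 0.09 under heat, against 5.31 ± 0.05 under standard temperature. At S3 it averaged 4.96 ± 0.08 under heat, against 5.26 ± 0.08 under standard temperature. At S4 it averaged 4.95 ± 0.02 under heat, against 5.11 ± 0.06 under standard temperature. The libraries of the 2 temperatures did not overlap at any of these stages.

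In endosperm the level averaged 5.28 ± 0.00 under heat at S1, against 5.48 ± 0.03 under standard temperature (SD, n = 2 each). At S2 it averaged 5.18 ± 0.02 under heat, against 5.43 ± 0.02 under standard temperature. At S3 it averaged 4.94 ± 0.06 under heat, against 5.24 ± 0.01 under standard temperature. At S4 it averaged 4.96 ± 0.07 under heat, against 5.13 ± 0.04 under standard temperature. Under both temperatures the endosperm level was lower at S3 and S4 than at S1 and S2. The median over all that passed was lower there as well. Under standard temperature it was 5.44 to 5.46 in the libraries of S1 and S2 and 5.25 to 5.40 in those of S3 and S4. Under heat it was 5.41 to 5.44 and 5.28 to 5.35. In seed coat it averaged 5.19 ± 0.04 under heat at S1, against 5.32 ± 0.03 under standard temperature, and 5.13 ± 0.00 under heat at S2, against 5.36 ± 0.01 under standard temperature (SD, n = 2 each). Every heat library lay below every standard library in 10 of 10 pairs of tissue and stage, and this also held in 10 of 10 pairs when the level was taken relative to the median of all transcripts that passed. The choice of members fixes this direction in most pairs, and nothing is read from it. In these bulk tissues, fewer cells of a type and less RNA per cell cannot be told apart.

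**Figure D1:**
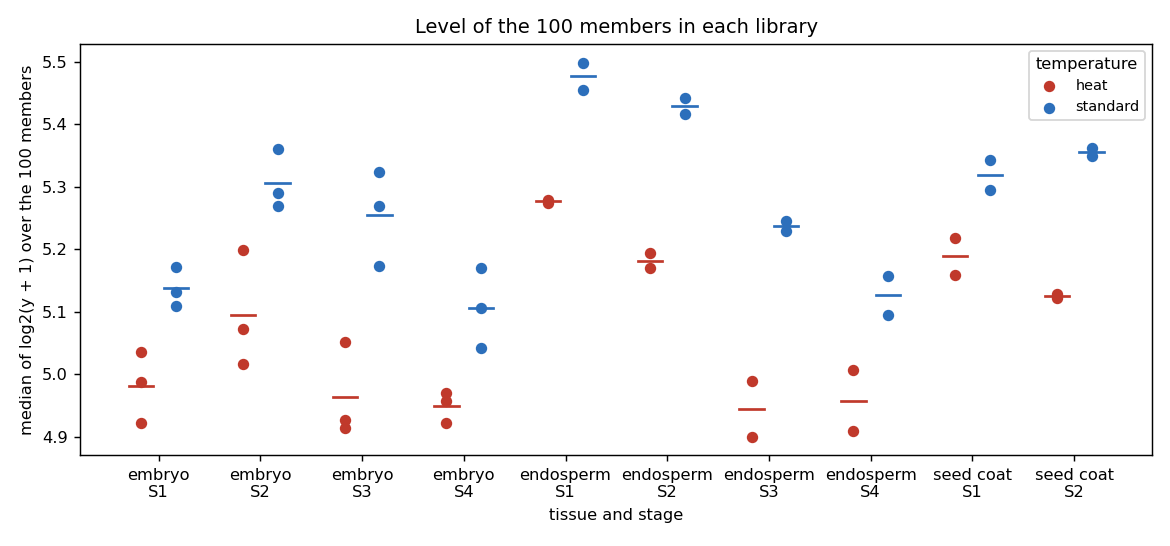
Median log2(y + 1) over the 100 members (vertical axis) in each of the 48 libraries by tissue and stage (horizontal axis), with heat libraries as red points left of standard libraries as blue points and short lines for group means. The heat libraries sit below the standard libraries in 10 of 10 pairs, with the heat means between 4.94 and 5.28 and the standard means between 5.11 and 5.48.

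The difference was not of 1 size over tissues and stages. In embryo the median D over members was -0.23 at S1, -0.19 at S2, -0.31 at S3 and -0.19 at S4. All 2214 transcripts that passed the limits had medians of -0.02, 0.02, -0.15 and -0.02 at the same stages, so that embryo S3 was lower under heat in the wider set as well. In endosperm the members had medians of -0.28 at S1, -0.26 at S2, -0.26 at S3 and -0.15 at S4, beside -0.03, -0.04, -0.04 and 0.05 in all that passed. In seed coat they had medians of -0.18 at S1 and -0.07 at S2, beside 0.11 and 0.10. Of the 1000 single D of the members 790 were below 0, that is 79%, against 49.4% of the D of all that passed. The rule asks for a low median over all D, and nothing is read from this share.

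Single members varied widely around these medians. In embryo 55 members at S1 had every heat library below every standard library, against 28.5% of all transcripts that passed. The count was 40 at S2 (12.8% of all that passed), 47 at S3 (31.4%) and 45 at S4 (23.7%). In endosperm it was 79 at S1 (42.6%), 81 at S2 (39.1%), 76 at S3 (34.3%) and 55 at S4 (22.8%). In seed coat it was 48 at S1 (22%) and 49 at S2 (17.2%). Members with every heat library above every standard library numbered 12 at embryo S1 (22.6% of all that passed), 2 at S2 (16.9%), 1 at S3 (6.82%) and 11 at S4 (20.9%). In endosperm they numbered 8 at S1 (33.6%), 2 at S2 (22.6%), 2 at S3 (22.4%) and 18 at S4 (38.2%). In seed coat they numbered 29 at S1 (50.4%) and 24 at S2 (55.1%). By this separation and scaling, transcripts higher under heat were most frequent in seed coat, among members and among all that passed. The order was another in the count model given further on, over a wider set of transcripts. It called 8.57% higher in seed coat and 17.8% in endosperm. Groups of 2 libraries, as in endosperm and seed coat, separate more easily by chance than groups of 3, as in embryo. These counts describe contrasts that the rule used.

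**Figure D2:**
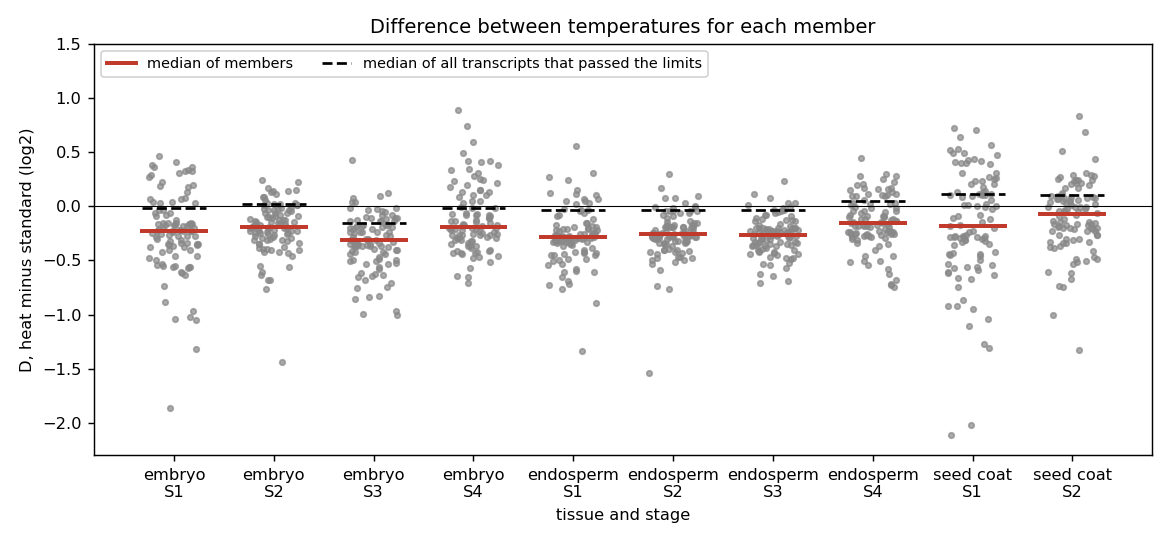
D, the heat minus standard difference in log2 (vertical axis), for each of the 100 members as a grey point by tissue and stage (horizontal axis), with a red line for the median of members and a dashed line for the median of the 2214 transcripts that passed the limits. The member medians lie between -0.31 at embryo S3 and -0.07 at seed coat S2, and single members spread widest in seed coat S1, down to -2.11.

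By member, 5 of the 100 were below 0 in all 10 D, 22 in 9, 38 in 8, 28 in 7 and 7 in 6. All 4 embryo D were below 0 in 39 members and all 4 endosperm D in 54, and 20 members met both conditions. The rule set no condition on seed coat alone, but both seed coat D were among the 10 whose median it ranked. In seed coat both D were below 0 in 34 members and both were above 0 in 15, while the mean of both was above 0 in 34. Singly, D was below 0 in 58 members at seed coat S1 (33.9% of all that passed) and in 61 at seed coat S2 (29.4%). For the joint counts the share over all that passed is not given, and nothing is read from them. Relative to all that passed, the members' median was -0.29 at seed coat S1, -0.17 at seed coat S2 and between -0.25 and -0.16 in embryo and endosperm. The mean seed coat D of a member lay between -1.43 and 0.67, with a median of -0.10. A single D of -1 or lower was found in 13 members, and a single D above 0.5 in 12. The lowest D of a member fell at embryo S3 in 25 members, at seed coat S1 in 18 and at embryo S1 in 14, and in at most 9 at any other tissue and stage. Members thus reached their lowest value in different places. Embryo S3 also had the lowest median D over all that passed, at -0.15. For the places of the lowest D no share over all that passed is given, and nothing is read from their order.

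Over the 100 members, the 45 correlations between the D of 2 tissue-stage pairs lay between -0.34 and 0.47, with a median of 0.01, and 40 of them were within 0.3 of 0. The highest was between embryo S1 and seed coat S1, at r = 0.47, which was 0.27 without the 2 farthest members and 0.20 over all transcripts that passed. The next was between endosperm S3 and endosperm S4, at 0.39, beside 0.46 over all that passed, and endosperm S2 and S3 had 0.11, beside 0.44. A choice by a low median of these same D can lower correlations between them, so nothing is read from their size. They are across transcripts, which are not independent replicates, and pairs of 1 tissue share a dissection, so they carry no test.

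Flatness under standard temperature was relative. Members ranged over 0.67 to 1.5 in L across the 10 standard groups, with a median of 1.25, against 1.20 over all that passed. This range was larger than the median D of every member. Under heat the range of L over the 10 groups had a median of 1.16 in members, with single members between 0.40 and 2.49, against 1.06 in all that passed. A range under 1.5 with the top group less than 1 above the second was also found under heat in 80 members, against 89.3% of all that passed. At least 1 heat group lay below the lowest standard group of the same member in 83 members (39.1% of all that passed), with a median of 2 such groups among 10. The number of such groups was 5 or 6 in 3 members and lower in all others.

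Stages of 1 name differed in age between temperatures, so levels were also set side by side at like ages. At 17 DAP in both temperatures, heat S2 minus standard S1 had a median over members of -0.13 in embryo, where 63 members were below 0 (44% of all that passed). The same difference was -0.39 in endosperm with 86 members below 0 (57.1%) and -0.08 in seed coat with 56 below 0 (31.1%). Heat S4 at 28 DAP minus standard S2 at 26 DAP had a median of -0.22 in embryo with 61 members below 0 (48.9%), and of -0.41 in endosperm with 84 below 0 (61.2%). All that passed had medians of 0.06, -0.07 and 0.17 for the first comparison and of 0.02 and -0.11 for the second. At like ages the members were thus lower under heat in 5 of 5 comparisons by their median, most in endosperm. The same group means entered the rule, and no test is given.

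The members were also chosen anew with 1 replicate left out of every group, and their D read in the replicate left out alone. Of the 100 transcripts chosen without replicate 1, 61 were members of the full set. Their median D was -0.22 in the libraries used for choosing and -0.17 in replicate 1, that is 75% of it, and 93 were below 0 in replicate 1, against 49% of the 2219 that passed. Of the 100 chosen without replicate 2, 61 were again members. Their median D was -0.22 in the choosing libraries and -0.16 in replicate 2, or 72.3% of it, with 95 below 0, against 48% of the 2086 that passed. The median D in both embryo and endosperm was below 0 in 74 of 100 for replicate 1, against 31.7% of all that passed, and in 74 of 100 for replicate 2, against 30.3%. Over the single pairs of tissue and stage, the held-out median was between -0.27 and -0.04 in replicate 1. In replicate 2 it was between -0.29 and -0.07, except in seed coat S2 with 0.02. The difference was smaller in the replicate left out, and below 0 in 93 and 95 of 100 transcripts. The labels do not tie replicates to separate plants, so the replicate left out may share plants with those used for choosing. These values describe the transcripts chosen anew, of which 61 were members each time, and nothing is read from them about the full set.

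**Figure D3:**
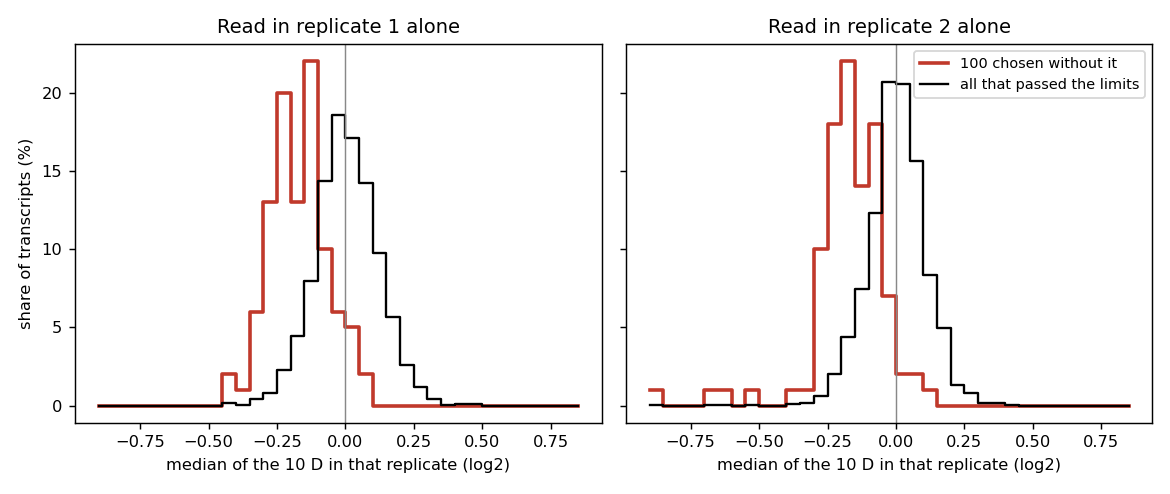
Share of transcripts in % (vertical axis) by the median of their 10 D in log2 (horizontal axis), read in replicate 1 alone (left panel) or replicate 2 alone (right panel), for the 100 transcripts chosen without that replicate (red) and for all that passed the limits (black). The red distributions centre at -0.17 and -0.16 and the black ones at 0.00.

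Levels per length were low to moderate. Members had a median of 9.88 TPM (a transcript's reads per length, scaled to a common total per library) over the standard groups, with single members between 1.51 and 167, against a median of 10.7 over all that passed. Their mean y under standard temperature was between 8.23 and 915, with a median of 37.8. In the lowest 33 members by y, between 8.23 and 23.2, the median D was -0.21 and the median replicate SD 0.154 in log2. In the middle 34, between 23.3 and 62.9, these values were -0.22 and 0.138, and in the highest 33, between 63.5 and 915, they were -0.23 and 0.123. The limit on the median D applies to each of these groups of members, and nothing is read from their likeness. Members were between 606 and 7042 bases long, with a median of 2122.5 bases, against 1949 over all that passed and 1792.5 over the 100 transcripts picked by the same rule in the other direction.

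Estimated counts that are not whole numbers arise where the quantification shares reads among similar transcripts. More than 50% of the values were not whole in 32 members, against 24.4% of all that passed, and every value was whole in 54 members, against 58.9%. In the 100 transcripts picked in the other direction these counts were 33 and 54. Where a transcript has a near-identical copy its values are uncertain, since reads of 1 copy can be assigned to the other. More than 50% of values were not whole in 1 of the 2 members with the lowest median D.

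By their identifiers, 31 members lay on chromosome 4, whereas 16.7% of all that passed did and 10 of the 100 transcripts picked in the other direction. Chromosome 1 held 12 members, chromosome 2 held 10, chromosome 3 held 9, chromosome 5 held 14, chromosome 6 held 4, chromosome 7 held 8 and chromosome 8 held 12. Members made up 8.40% of the transcripts of chromosome 4 that passed and between 2.77% and 5.79% of those on the other chromosomes. All transcripts of chromosome 4 that passed had a median D of -0.00. The 4 members with the lowest median D were all on it, and 6 of the 10 lowest. The 31 members lay between place 28 and place 6585 among the 6934 identifiers of the chromosome. The members on chromosome 4 had a median y of 64.6, a median length of 2560 bases and a median D of -0.23, against 24.7, 1951 bases and -0.22 for the other 69 members. Of the highest 33 members by y, 18 were on chromosome 4, against 3 of the lowest 33. This count was noticed in the data and carries no test. It depended on the scaling and on the limits. With y per 1000000 of the whole column sum, 9 of 76 chosen transcripts were on chromosome 4, against 15% of those that then passed. With the 10 largest counts left out it was 26 of 100, against 16.6%, and with TMM, a scaling built on the bulk of transcripts, 22 of 100, against 17.2%. With a standard range under 1 it was 18 of 100, against 16.5%, and with a range under 2 it was 23, against 16.5%. With a mean y of at least 20 it was 34 of 100, against 18.1%, and with group medians 28, against 16.4%. With log2(mean + 5) it was 25 of 100, against 16.3%, and without seed coat 25, against 16.7%. Of these settings, only the whole column sum gave a share below that of all that then passed. The sets chosen overlap with the 100 members, from 2 of them with the whole column sum to 84 with group medians. They are therefore not separate observations.

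**Figure D4:**
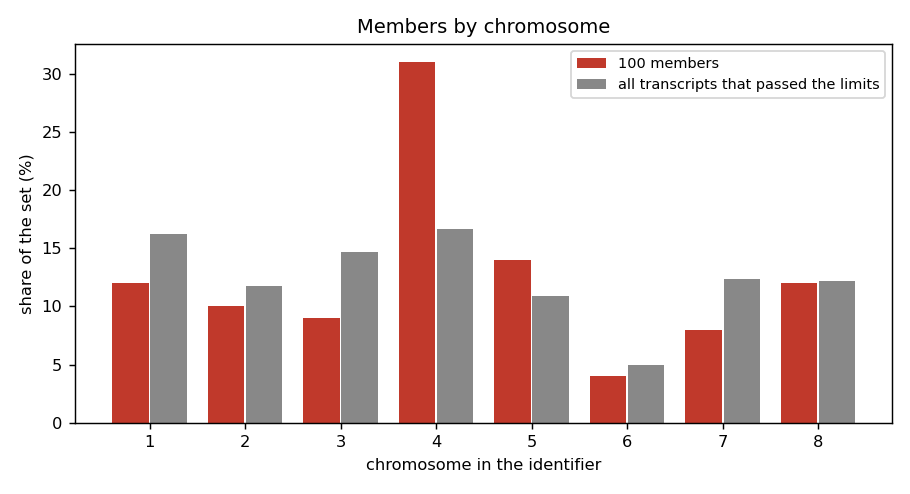
Share in % (vertical axis) of the 100 members (red) and of the 2214 transcripts that passed the limits (grey) by the chromosome in their identifier (horizontal axis). Chromosome 4 held 31% of members and 16.7% of all that passed, and 6 transcripts of unplaced sequences among those that passed are not drawn.

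Few members were neighbours. Within 5 steps in the numbering of a chromosome, 5 pairs of members were found. One pair on chromosome 2 stood next to each other, with lengths of 1392 and 1173 bases and only whole counts. Their median D were -0.24 and -0.23, and their 10 D correlated at 0.85, with the highest D of both at seed coat S1, at 0.25 and 0.08. The other 4 pairs had correlations of 0.24, 0.21, 0.52 and -0.31 over the 10 D.

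The member with the lowest median D, -0.69, was MtrunA17_Chr4g0073351, on chromosome 4, with 2988 bases and only whole counts. In embryo S1 it had a y of 119, 89.6 and 69.1 under heat, against 158, 202 and 214 under standard temperature, with D = -1.04. In embryo S2 it had 85.8, 85.3 and 93.7 under heat, against 89.1, 413 and 222 under standard temperature, with D = -1.44. The groups separated at S1 and overlapped at S2, where the standard libraries differed more than 4-fold. The D at embryo S2 was -0.81 without replicate 2 of the standard group and -1.83 without replicate 1. In endosperm S2 it had 165 and 177 under heat, against 285 and 297 under standard temperature. In seed coat S1 it had 222 and 227 under heat, against 408 and 446 under standard temperature, and at S2 258 and 249 under heat, against 357 and 418. Endosperm S1 was the exception, with 228 and 225 under heat, against 210 and 212 under standard temperature, and D = 0.10. At the other 4 tissue-stage pairs every heat library was below every standard library. Among these, D at endosperm S3 was -0.71, and -0.37 without replicate 2 of the standard group, and at embryo S4 it was -0.26, and -0.17 without replicate 3.

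Of the 5 members below 0 in all 10 D, the most abundant per length was MtrunA17_Chr4g0004961, with 2253 bases, a median D of -0.28 and a mean of 38 TPM under heat, against 53.8 TPM under standard temperature. Its largest difference was at endosperm S4, with a y of 207 and 190 under heat, against 334 and 325 under standard temperature, and D = -0.73. At endosperm S3 it had 253 and 248 under heat, against 302 and 340 under standard temperature. At embryo S3, where its level was highest, it had 351, 358 and 351 under heat, against 403, 375 and 343 under standard temperature. Libraries overlapped at embryo S1, S2 and S3, and every heat library was lower at the other 7 pairs. The sign at embryo S1, where D was -0.03, turned to 0.02 without replicate 3 of the standard group.

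The highest single D of any member was that of MtrunA17_Chr4g0018591, a transcript of 686 bases on chromosome 4 with no whole counts and a median D of -0.18. At embryo S4 it had a y of 35.7, 35.5 and 35.5 under heat, against 22.1, 13.3 and 20.7 under standard temperature, with D = 0.89. At endosperm S4 it had 13.0 and 12.3 under heat, against 20.0 and 18.7 under standard temperature, with D = -0.58. Mature embryo and mature endosperm thus lay on opposite sides. At seed coat S1 it had 16.6 and 15.6 under heat, against 10.2 and 12.2 under standard temperature. Its embryo libraries overlapped at S1, S2 and S3, and its low levels and shared reads limit these values.

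The next highest single D belonged to MtrunA17_Chr4g0031301, which had the second-lowest median D, -0.56, and 97.9% of values that were not whole. It was 2613 bases long and averaged 83.3 TPM under heat, against 139 TPM under standard temperature. At embryo S1 it had a y of 354, 352 and 335 under heat, against 946, 797 and 858 under standard temperature, with D = -1.32. At endosperm S2 it had 264 and 275 under heat, against 788 and 780 under standard temperature, with D = -1.54. At embryo S4 the difference was small, with 1100, 1092 and 994 under heat, against 1132, 1093 and 1135 under standard temperature. At seed coat S2 the order turned, with 714 and 754 under heat, against 331 and 492 under standard temperature, and D = 0.83. At seed coat S1 it had 228 and 149 under heat, against 1366 and 172 under standard temperature. The D of -2.02 there rested on 1 library, since it was 0.13 without replicate 1 of the standard group. At endosperm S3, where D was -0.44, it was 0.01 without replicate 2 and -0.78 without replicate 1 of the standard group. Over the removal of single libraries its median D lay between -0.73 and -0.38.

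**Figure D5:**
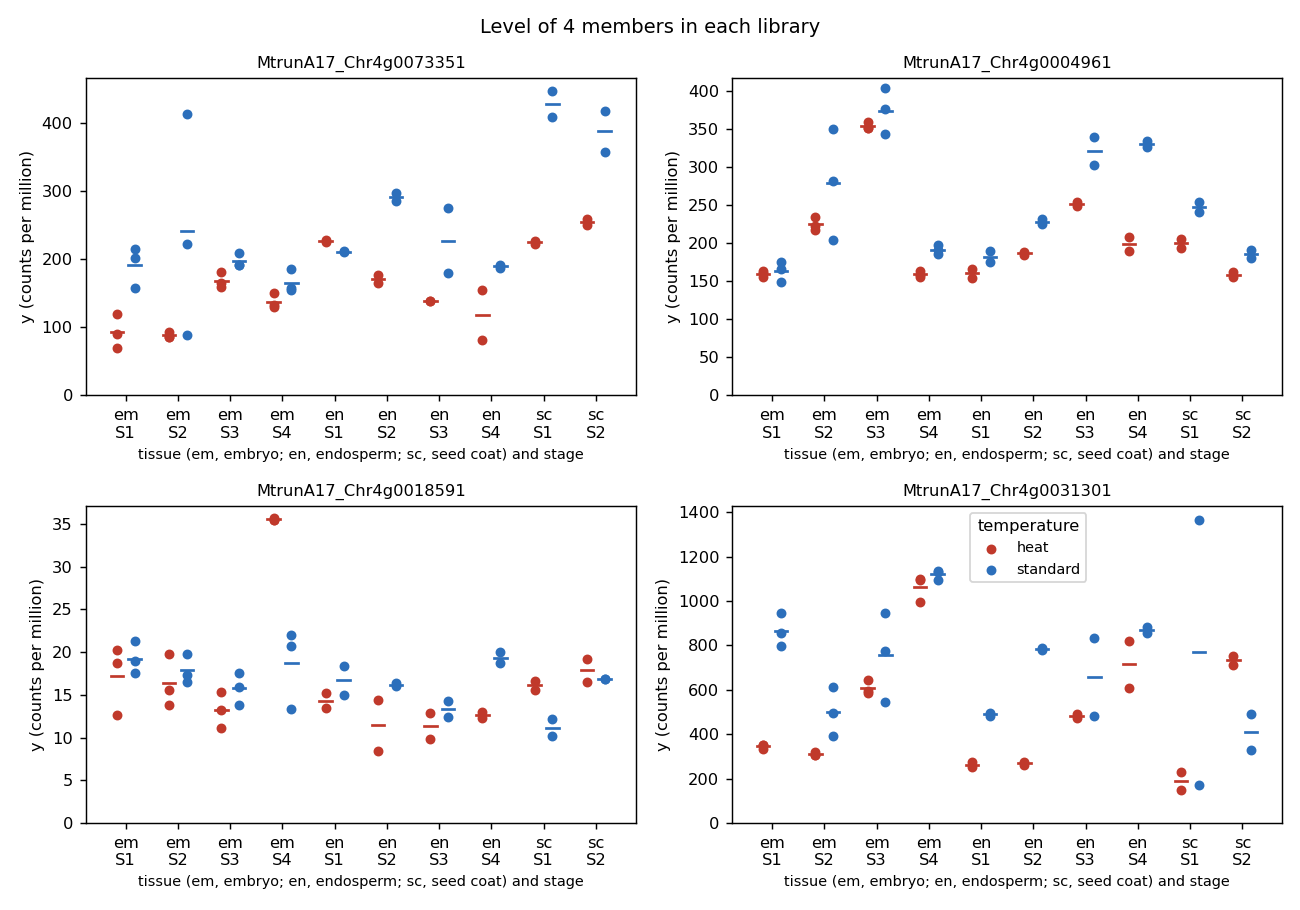
y, the estimated count per 1000000 after the 100 largest counts were left out (vertical axes, from 0), of the 4 members described by identifier, in each library by tissue and stage (horizontal axes), with heat libraries in red left of standard libraries in blue and lines for group means. MtrunA17_Chr4g0018591 is higher under heat at embryo S4 (35.5 to 35.7) than under standard temperature (13.3 to 22.1), and MtrunA17_Chr4g0031301 has 1 standard library at seed coat S1 at 1366 and the other at 172.

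A count model gave the share of members that passed a test on the same contrast. In edgeR's quasi-likelihood test of the mean heat effect over the stages of a tissue, fitted on all transcripts with Benjamini-Hochberg adjustment at a threshold of 0.01, 34 members were called lower in embryo and 0 higher. Over all 21992 transcripts tested in embryo 5.4% were called lower and 8.36% higher. In endosperm 51 members were called lower and 0 higher, against 9.53% and 17.8% of 26400. In seed coat 22 were called lower and 2 higher, against 10.3% and 8.57% of 25439. The median log2 fold change of the members was -0.20, -0.20 and -0.16 in embryo, endosperm and seed coat, against 0.03, 0.04 and -0.01 over all transcripts tested. The rule used this contrast and nothing is read from these counts. Without scaling factors, by library size only, 87 members were called lower in embryo and 84 in endosperm, against 24.4% and 20.4% of all transcripts tested, and the median over all of them moved by -0.21 and -0.13 in log2 fold change. In seed coat, leaving out 1 library leaves 1 library in its group, so no calls are given for such fits. The median log2 fold change of the members there was lowest without replicate 2 of S2 under standard temperature, at -0.16. It was highest without replicate 2 of S1 under standard temperature, at -0.13. Over all transcripts tested the median was -0.01 and -0.00 in these fits.

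Levels also differed between stages under heat in most members. The joint test of S2, S3 and S4 against S1 under heat, in the same fit of edgeR and at an adjusted p below 0.01, called 67 members in embryo, against 78.4% of all transcripts tested. In endosperm it called 54 members, against 66.3%. Both shares were below those of all transcripts tested. Those were not limited to flat ones, whereas members were chosen for little change over stages under standard temperature. The share over the 2214 that passed the limits is not given, and nothing is read from these counts.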

How the data were processed

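Per the labels and the methods of the study, the authors sequenced single-end reads of 48 libraries, quantified them with Salmon in quasi-mapping mode with sequence bias correction on the A17 reference transcriptome and deposited the estimated counts, neither normalized nor pooled. Effective lengths in the deposited table served for TPM. The members and lists were chosen with earlier results of these data known. For the count models the deposited values were rounded, in edgeR 4.0.16 and DESeq2 1.42.0 in R 4.3.3, and they were left unrounded for y, L and D. The filter was filterByExpr (at least 10 counts, total of at least 15), the scaling TMM, and each tissue was fitted with 1 mean per stage and temperature, and p-values were adjusted by Benjamini-Hochberg over all transcripts tested. The threshold of 0.01 is that of the study. ImpulseDE2, used there for embryo and endosperm, was not run.

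A count was called not whole when it differed from a whole number by more than 1e-06. Transcripts of the plastid (85) and mitochondrion (72) could not be members. The 4 members given by identifier were the one with the lowest median D, the most abundant per length among those below 0 in all 10 D, and those with the 2 highest single D. Of 44473 identifiers 0 were found in the gene table, and no sequence was used. No pair of columns was identical. Alternatives were other scalings, limits of the rule, no filter, DESeq2, a replicate block and the removal of single libraries. Without molecular identifiers, reads cannot be taken as independent molecules, and library totals limit the precision of low members.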

Additional observations from a re-analysis of the deposited data

Results flagged for a closer look

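Among the 4 members described by identifier, 3 had all libraries separated one way in 1 tissue and stage and the opposite way in another. In the whole set 70 members showed such a turn. No share over all that passed is given for it, and nothing is read from this count. For members picked by their high single D, that choice favoured such a turn. None of the differences between differences given here was tested. The D of MtrunA17_Chr4g0073351 at endosperm S1 (n = 2 each), where it was higher under heat, exceeded that at endosperm S2 by 0.87, at endosperm S3 by 0.81 and at endosperm S4 by 0.78 in log2. The value of 0.81 was 0.47 without replicate 2 of endosperm S3 under standard temperature. It exceeded the D of embryo S1 by 1.14 and that of seed coat S1 by 1.03.

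The D of MtrunA17_Chr4g0018591 at embryo S4 (n = 3 each) exceeded that at endosperm S4 (n = 2 each) by 1.47. The D of MtrunA17_Chr4g0031301 at seed coat S2, where it was higher under heat, exceeded that at embryo S2 by 1.52 and that at endosperm S2 by 2.37. More than 50% of the values of both transcripts were not whole numbers.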

How the results depend on the processing

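The membership depended more on the scaling and the limits than on single libraries. Of the 100 members, 2 were chosen again with the whole column sum, under which 153 transcripts passed the limits, 2 of the members among them, while all 100 members still had a median D below 0. With the 10 largest counts left out 50 were chosen again, of 51 members that then passed the limits, and with TMM 50 of 71. With a range under 1 only 20 members passed, and with a mean y of at least 20 only 57. All of these were chosen again, so that these counts follow from the tighter limits. With a range under 2, 41 were chosen again, and without replicate 1 or without replicate 2 of every group 61 and 61. With log2(mean + 5) 71 were chosen again, with group medians 84 and without seed coat 80. Leaving out 1 library kept between 90 and 100 members, and at least 98 of the 100 still had a median D below 0. The median D of the members was -0.31 with the whole column sum, -0.21 with TMM and -0.19 with log2(mean + 5), and between -0.22 and -0.21 without single libraries.

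By library size only, 87 members were called lower in embryo and 84 in endosperm, against 24.4% and 20.4% of all transcripts tested. With RLE factors 39, 55 and 22 members were called lower in embryo, endosperm and seed coat. Of all transcripts tested, 6.48%, 10.1% and 10.5% were called lower there. Without the filter the members called lower were 23, 43 and 21, against 2.83%, 5.95% and 8.28%. With DESeq2 they were 44, 44 and 23, against 7.61%, 8.91% and 13.7%. Without single libraries they were between 26 and 42, between 37 and 49 and between 9 and 32, and calls between stages under heat were between 61 and 75 in embryo and between 44 and 55 in endosperm. Without replicate 2 of embryo S3 under standard temperature 39 members were called lower in embryo, against 5.76%. With a replicate block 34, 47 and 17 members were called lower in embryo, endosperm and seed coat, against 5.13%, 9.25% and 8.25%. Between stages 69 members were called in embryo and 53 in endosperm with this block, against 77.1% and 65.3%. Nothing is read from these counts. Deviations of same-numbered libraries gave 18 distinct correlations between -0.14 and 0.24, with 4 over 0.1. With 2 or 3 libraries per group, these values cannot settle whether the replicate numbers pair the samples. The main fits used no pairing. Where values moved, the cause was not tested.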
